A study of Mus musculus with 7 samples.

Results

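The genes described here encode the nuclear subunits of the mitochondrial respiratory chain and ATP synthase, with some of the factors that assemble them. They were taken by symbol: every gene whose symbol begins with Nduf, Sdha, Sdhb, Sdhc, Sdhd, Uqcr, Cox4, Cox5, Cox6, Cox7, Cox8 or Atp5 and that had a probe set with exactly 1 gene symbol. This gave 94 genes of the 18193 named on the array. Each gene was read from the probe set with the highest mean over the 7 arrays, and 91 of the 94 passed the filter, an intensity of 82 or more in 2 or more arrays, as did 10874 genes in all. The 91 comprised 34 subunits of complex I, 4 of complex II, 8 of complex III, 16 genes of complex IV, 17 of complex V and 12 assembly factors. Genes with these symbols but without such a probe set, and the subunits encoded by mitochondrial DNA, were not analysed here.

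The respiratory chain carries electrons from NADH, through complex I, or from succinate, through complex II, to coenzyme Q, then through complex III and cytochrome c to complex IV, which reduces oxygen. Complexes I, III and IV pump protons out of the mitochondrial matrix, and complex V, the ATP synthase, lets them back in to make ATP. Resting T cells draw much of their ATP from this chain, and T cells that are activated or dividing build more mitochondria.

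The arrays hold RNA of thymic T cells that were sorted from C57BL/6J mice aged 4 to 6 weeks. Stage 1 NKT cells, an early step of the lineage that recognises lipids on CD1d, were sorted as CD1d tetramer-positive, CD24-low cells without CD44 or NK1.1. They came from Valpha14 T cell receptor transgenic mice (n = 2 arrays) or from mice that carried both this transgene and the Luxoid mutation of Zbtb16 and are labelled PLZF-deficient (n = 3). PLZF is the transcription factor encoded by Zbtb16 that directs NKT cell development. The third group was CD4+ CD8- (CD4SP) thymocytes of wild-type mice without the transgene (n = 2), so cell type and transgene cannot be told apart in any comparison with CD4SP. Every sample was a pool of mice. The cell type label of the CD4SP samples repeats the NKT sort, but their titles and descriptions name CD4SP thymocytes.

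Correlations between arrays within a group were 0.984 to 0.992 across probe sets, and array medians lay between 79.6 and 83.7. Zbtb16 read 2751 and 3488 in stage 1 NKT, 1857, 2774 and 2645 in Luxoid NKT, and 87.3 and 61.8 in CD4SP, which separates CD4SP from both NKT groups but does not check the loss of PLZF protein. The NKT marker list, Zbtb16 included, summed to 11845 to 12115, 7801 to 8064 and 4219 to 4574 in these groups. Icos read 6599 and 5867, then 3298, 2722 and 2652, then 3135 and 2778. Il4 read 566 and 489, then 274, 222 and 203, then 49.3 and 51.9. Slamf6 was higher in both NKT groups (1821 to 2386) than in CD4SP (1069 and 1121), and Cd44 overlapped in all groups. The 3 T cell markers measured were present in every array. Markers of other cells also reached 82. The NK list summed to 278 to 307 in stage 1 NKT, 895 to 1032 in Luxoid NKT and 118 to 140 in CD4SP, through Fcer1g, while Ncr1 and Eomes were under 82 in every array. The mature CD4SP list summed to 5575 to 6454, 7266 to 7764 and 13153 to 14710, the B cell list to 292 to 412 in all arrays with Ms4a1 under 82, and the thymic epithelium list to 299 to 471 with Foxn1 under 82. All 6 myeloid or dendritic markers and both erythroid markers measured were under 82 in every array. Of 6 markers of double-positive thymocytes, the precursor stage, 1 reached 82 in a stage 1 NKT array and 3 in each of the other groups. Their summed intensity was 283 to 295 in stage 1 NKT, 384 to 506 in Luxoid NKT and 910 to 1033 in CD4SP. Rag1, Rag2 and Ptcra stayed under 82 in every array. Dntt read 461 and 527 in CD4SP against 46.4 to 120 in the NKT arrays, and Cd8b1 223 and 268 against 43.8 to 123. Cd8a read 82.3 to 184 over all arrays. The part of any of these cells in the differences below was not tested. The pools also differed in sex: Y-linked Kdm5d read 6.49 to 11.7 in the arrays numbered 1 and 758 to 2331 in the others. Xist, which marks female cells, read 36.1 in Luxoid array 2 and 29.0 in CD4SP array 2, and 3888 to 6723 elsewhere. Stage 1 NKT array 2 and Luxoid array 3 read high in both genes, so the mix of sexes was not the same in each group.

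Seen together, transcripts of the chain were higher in stage 1 NKT than in either other group, by small amounts. To set genes on one scale, each log2 value was taken relative to that gene's mean over the 7 arrays, and the median over the 91 genes was read in each array. It was 0.21 and 0.18 in the stage 1 NKT arrays. It was 0.034, 0.0029 and -0.13 in the Luxoid NKT arrays and -0.18 and -0.076 in the CD4SP arrays. Both stage 1 NKT arrays therefore lay above all others, while Luxoid array 3 fell within the range of CD4SP. Over all 10874 genes the same median ran only from -0.032 to 0.054. These are bulk samples, in which fewer cells of a type and less RNA per cell cannot be told apart.

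**Figure D1:**
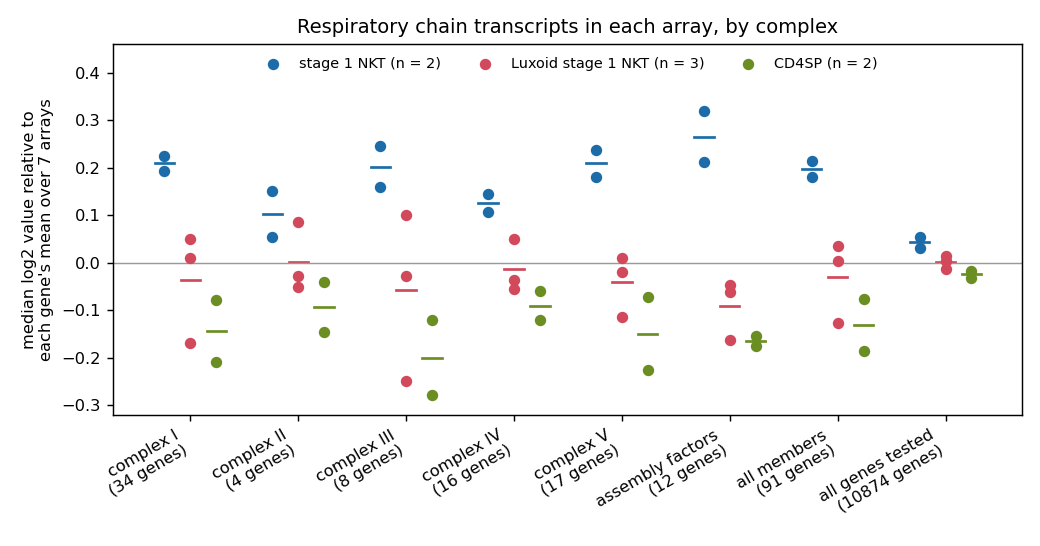
Median log2 value of each gene set in each array, relative to each gene's mean over the 7 arrays (points are arrays, bars are group means), for stage 1 NKT (n = 2), Luxoid stage 1 NKT (n = 3) and CD4SP thymocytes (n = 2). For all 91 respiratory chain genes the stage 1 NKT arrays stood at 0.18 and 0.21, above every other array, and the spread of all genes tested was far narrower.

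Setting Luxoid against unmutated stage 1 NKT compares pools that differ in the Luxoid mutation, and also in the mix of sexes and the markers above. What each contributed was not tested. For the chain, 83 of 91 genes had a lower mean in Luxoid NKT and 8 a higher one, against 56% lower over all genes tested. The median difference was -0.21 on the log2 scale (1.16-fold), with quartiles of -0.34 and -0.099, while the median of all genes tested was -0.030. In 52 of 91 genes every Luxoid array read below both stage 1 NKT arrays (background 16.6% of genes), and in 0 genes did every Luxoid array read above them (background 10.1%). Yet no single gene passed: with limma and Benjamini-Hochberg adjustment over all 10874 genes, 0 of 91 had an adjusted p under 0.05, where the background was 1.55%. At an unadjusted p under 0.05 there were 17, all lower in Luxoid NKT (background 7.12% lower). Further probe sets past the filter existed for 46 members. In 35 of these all had the sign of the probe set used, and in 11 some had the opposite sign. The members are read at high intensities, and among the 3162 genes tested that were at least as bright as the lower quartile of the members, the median was -0.018.

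The comparison of stage 1 NKT with CD4SP contrasts this NKT stage with conventional T cells of the same organ. Here 80 of 91 genes had the higher mean in stage 1 NKT (background 56.2%), with a median of 0.34 (1.27-fold) against 0.064 over all genes tested and 0.087 over the equally bright ones. The 2 groups did not overlap, with stage 1 NKT above, in 66 of 91 genes (background 36.6%), and with stage 1 NKT below in 4 (background 23.6%). At an adjusted p under 0.05, 9 of 91 genes were higher in stage 1 NKT and 0 lower (background 4.08% lower). This share of 9.89% is near the background of 10.8% of all genes called higher, so the call count does not set the chain apart. Each of the 9 calls was lost in several fits without 1 array of these groups, which leave 1 array in a group. The median then ran from 0.27 to 0.38. The count of 9 rose to 22 with a variance model that follows intensity and to 18 with Y-linked expression as a covariate. The share of all genes called in those fits was not compared, so these counts do not set the chain apart either.

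Between Luxoid NKT and CD4SP the median over the 91 genes was 0.11 in favour of Luxoid NKT, against 0.021 over all genes tested and 0.061 over the equally bright ones, and it was 0.021 without CD4SP array 1 and 0.17 without Luxoid array 3. Without Luxoid array 3 the Luxoid difference from stage 1 NKT was -0.15, so which of these pairs lay closer depended on that array. By mean, 67 of 91 genes were higher in Luxoid NKT (background 52.4%). At the adjusted threshold 1 gene was higher and 2 were lower, against backgrounds of 11.3% and 5.51%. The groups did not overlap in 22 genes higher in Luxoid NKT (24.2%, background 25.4%) and in 7 lower ones (7.69%, background 20.6%). The 3 comparisons share arrays in pairs, so they are not independent of each other.

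**Figure D2:**
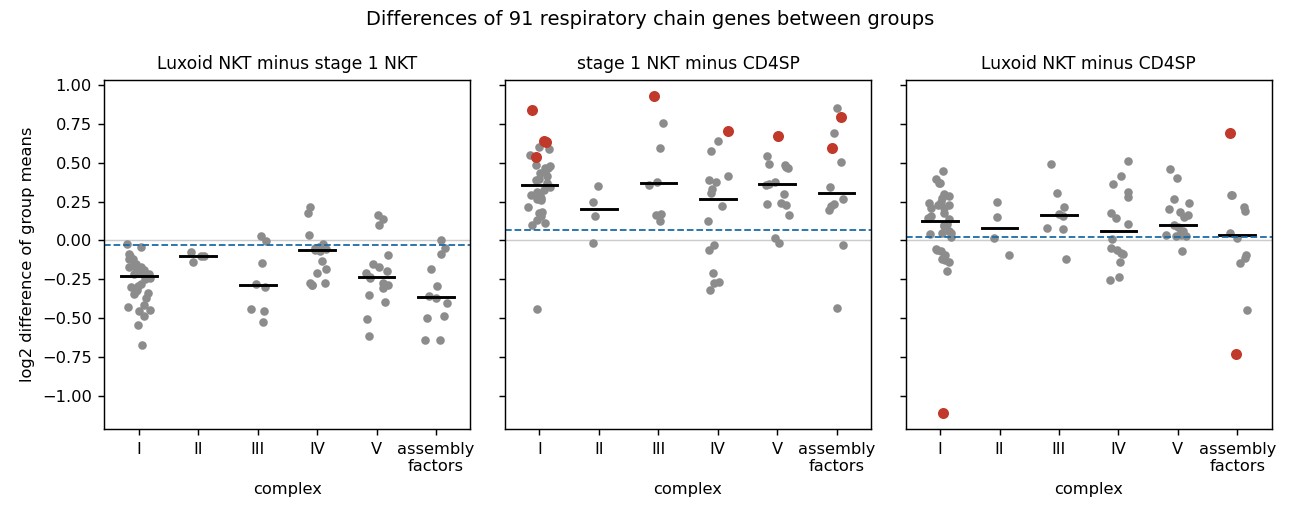
Log2 difference of group means for each of the 91 genes, by complex, in the 3 comparisons. Grey points are genes not called, red points have an adjusted p under 0.05 (limma), black bars are medians of the complex and the dashed line is the median of all genes tested. In Luxoid NKT minus stage 1 NKT nearly all points lie below 0 with no red point, and in stage 1 NKT minus CD4SP nearly all lie above 0 with 9 red points.

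Complex I, which takes electrons from NADH, was the largest group. All 34 subunits had a lower mean in Luxoid than in unmutated stage 1 NKT (median -0.23, from -0.67 to -0.023). In 23 of them the arrays did not overlap (background 16.6%). The lowest value, -0.67, and 1 of these 23 belong to Ndufb4, whose Luxoid arrays were all under 82. Against CD4SP, 33 of 34 were higher in stage 1 NKT (median 0.36). Of these 4 passed the threshold, a share near the background of 10.8%. Among the 6 core subunits measured, which hold the flavin and iron-sulphur clusters or their close neighbours, the largest difference was that of Ndufs3. It read 1358 and 1252 in stage 1 NKT, 1080, 904 and 735 in Luxoid NKT, and 943 and 925 in CD4SP. Every Luxoid array was below both unmutated ones and spanned the CD4SP values, but the difference of -0.54 ± 0.17 (SE) did not pass (adjusted p = 0.257, limma). Ndufs7 read 2163 and 2427 in stage 1 NKT, 2152, 1473 and 1389 in Luxoid NKT, and 1648 and 1977 in CD4SP (-0.48 ± 0.21, adjusted p = 0.419), with Luxoid array 1 just under the unmutated arrays and the other 2 well below. Ndufs8 differed by -0.33 ± 0.20 and Ndufv2, a subunit of the NADH-binding module, by -0.21 ± 0.15, with neither passing. Ndufv1, which binds NADH and flavin, (-0.090 ± 0.14) and Ndufs1, the largest core subunit, (-0.043 ± 0.21) showed little difference between the NKT groups relative to their errors.

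The 4 complex I subunits that were called in stage 1 NKT against CD4SP are all accessory, meaning that they do not carry the electrons. Ndufb2 read 541 and 534 in stage 1 NKT, 410, 462 and 325 in Luxoid NKT, and 293 and 309 in CD4SP. The 3 groups did not overlap, and stage 1 NKT exceeded CD4SP 1.79-fold (0.84 ± 0.18, adjusted p = 0.0182). Another probe set of Ndufb2 pointed the other way (-0.35), and averaging its probe sets ended the call. Ndufab1, the mitochondrial acyl carrier protein, read 1232 and 1241, then 1007, 860 and 853, then 698 and 913 in the same order of groups (0.63 ± 0.18, adjusted p = 0.0453). Of its 4 other probe sets 1 shared this direction (0.54) and 3 opposed it (-0.22 to -0.49), and averaging them left a difference of 0.013 (adjusted p = 0.959). Ndufa12 read 2411 and 2391, then 1919, 2017 and 1658, then 1377 and 1722 (0.64 ± 0.17, adjusted p = 0.0380). Ndufa1, an X-linked membrane subunit, read 4638 and 4727, then 4288, 4359 and 3836, then 3090 and 3358 (0.54 ± 0.14, adjusted p = 0.0396, and called with the Y-linked covariate as well). Each of these 4 calls was lost when any 1 array of stage 1 NKT or CD4SP was left out. In all 4 genes the stage 1 NKT arrays were the highest and Luxoid NKT was lower by 0.17 to 0.45, without passing.

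Ndufb4 stood apart from the rest of complex I. Its only probe set with 1 symbol was dim, at 107 and 79.4 in stage 1 NKT, 66.8, 68.2 and 42.7 in Luxoid NKT, and 163 and 96.3 in CD4SP. It was the 1 complex I subunit whose mean was higher in CD4SP than in stage 1 NKT. It passed the filter through 3 arrays, none of them Luxoid, so both of its Luxoid differences rest on values under 82. These were -0.67 ± 0.28 against stage 1 NKT, not called, and -1.11 ± 0.28 against CD4SP, called (adjusted p = 0.0303, limma). The call was lost without CD4SP array 1 or Luxoid array 3.

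Complex II, succinate dehydrogenase, is the link to the citric acid cycle and is encoded wholly in the nucleus. Between the NKT groups 4 of 4 subunits had a lower mean in Luxoid NKT, by 0.075 to 0.14, and 0 were called. Sdha, the flavin subunit, read 3703 and 3614 in stage 1 NKT, 3661, 3346 and 3423 in Luxoid NKT, and 3991 and 3440 in CD4SP. All 3 groups overlapped, and stage 1 NKT minus CD4SP was -0.018 ± 0.15 (0.056 with the mean of its probe sets). Sdhb, the iron-sulphur subunit, read 1862 and 1847, then 1718, 1830 and 1639, then 1449 and 1460. It was higher in stage 1 NKT than in CD4SP by 0.35 ± 0.14 without passing (adjusted p = 0.134). The membrane anchors Sdhc and Sdhd were higher by 0.16 ± 0.17 and 0.25 ± 0.17, both within overlapping arrays, while a dimmer probe set of each gave 0.67 and 0.61.

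Complex III passes electrons from coenzyme Q to cytochrome c. All 8 of its members had a higher mean in stage 1 NKT than in CD4SP (median 0.37), and 7 of 8 a lower mean in Luxoid than in unmutated NKT (median -0.29, or -0.15 without Luxoid array 3). Uqcr11, a small subunit of the complex, read 820 and 881 in stage 1 NKT, 618, 655 and 605 in Luxoid NKT, and 373 and 532 in CD4SP. The groups stood in 3 separate steps, and stage 1 NKT exceeded CD4SP 1.91-fold (0.93 ± 0.19, adjusted p = 0.0121), the largest difference among the 91 genes in that comparison. Luxoid minus stage 1 NKT was -0.44 ± 0.17 (adjusted p = 0.361). Uqcr10 and Uqcrq, also small subunits, had Luxoid differences of -0.52 ± 0.19 and -0.45 ± 0.20, neither called. A dimmer probe set of Uqcr10 gave 0.13. Uqcrb was at -0.0015 ± 0.18 and Uqcrh at -0.28 ± 0.19, while a dimmer probe set of each gave -0.29 and -0.11. Uqcrfs1, the Rieske iron-sulphur protein, was at -0.30 ± 0.19, Uqcrc2 at -0.14 ± 0.13 and Uqcrc1 at 0.027 ± 0.19.

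Complex IV, cytochrome c oxidase, differed little between the NKT groups. Its 16 genes had a median of -0.064 in Luxoid against stage 1 NKT (-0.16 without stage 1 NKT array 2), and the 11 genes left when tissue isoforms and the paralog Ndufa4l2 were set aside had a median of -0.13, with all 11 lower by mean. In stage 1 NKT against CD4SP those 11 had a median of 0.33 and 9 were higher. Cox4i1, the general form of subunit 4, read 4781 and 4184 in stage 1 NKT, 4292, 4103 and 3472 in Luxoid NKT, and 4245 and 3963 in CD4SP, with all groups overlapping. Cox5a, which partners it, read 3654 and 2913, then 3272, 2487 and 2402, then 2375 and 1844. It was higher in stage 1 NKT than in CD4SP by 0.64 ± 0.21 (adjusted p = 0.0834), without overlap. Cox6a1, Cox6b1, Cox7a2, Cox8a and Ndufa4 lay between -0.29 and -0.065 in Luxoid against stage 1 NKT and between 0.22 and 0.57 in stage 1 NKT against CD4SP, with 0 called. Cox7a2l is known as a factor of supercomplexes of complex III and complex IV. Whether it acts so in this mouse strain is not shown by RNA. It ran the other way, at 7510 and 7273, then 7369, 7395 and 6745, then 8685 and 8435. Both CD4SP arrays were above all NKT arrays (-0.21 ± 0.14 for stage 1 NKT, adjusted p = 0.356).

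The isoforms known mainly from heart, muscle, lung or testis were dim. Cox7a1 and Cox8b, the muscle forms, read 46.3 to 63.9 in all arrays, and the testis form Cox7b2 read 5.5 to 6.5. These are the 3 genes that failed the filter. The other isoforms read up to 205 in any array: Cox4i2 80.5 to 118, Cox6a2 143 to 205, Cox8c 88.1 to 128 and Ndufa4l2 81.8 to 97.0. Of these isoforms Cox6b2 was called. It read 136 and 154 in stage 1 NKT, 122, 108 and 127 in Luxoid NKT, and 102 and 77.1 in CD4SP (stage 1 NKT minus CD4SP 0.70 ± 0.18, adjusted p = 0.0345). Just inside the filter were Cox4i2, Cox6b2, Ndufa4l2 and Sdhaf3, each at 82 or more in 6 arrays, and Ndufb4 in 3; just outside, the highest value of Cox8b was 63.9.

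Complex V makes ATP. In Luxoid against stage 1 NKT 14 of 17 members were lower by mean (background 56%), with a median of -0.23. In 13 of them the arrays did not overlap (background 16.6% of all genes). In stage 1 NKT against CD4SP 16 of 17 were higher by mean (background 56.2%), with a median of 0.36, or 0.23 without CD4SP array 1. Of the 12 genes of the membrane part and peripheral stalk 11 read lower in every Luxoid array than in either unmutated array (median -0.26), against 2 of the 5 genes of the F1 part (median -0.19), Atp5d and Atp5e of the central stalk; the difference between these parts was not tested. Atp5g1 is 1 of 3 genes that encode the same mature c subunit, the proton-carrying ring. It read 970 and 1065 in stage 1 NKT, 728, 703 and 573 in Luxoid NKT, and 581 and 703 in CD4SP. Luxoid and CD4SP covered the same range below stage 1 NKT, which exceeded CD4SP 1.59-fold (0.67 ± 0.18, adjusted p = 0.0380, not called with the mean of its probe sets). Luxoid minus stage 1 NKT was -0.61 ± 0.16, with the lowest unadjusted p of the 91 genes in that comparison (0.00486, adjusted p = 0.144). The other c genes differed less between the NKT groups, at -0.29 ± 0.19 for Atp5g2 and -0.17 ± 0.13 for Atp5g3. In the F1 part the alpha subunit Atp5a1 (0.14 ± 0.14) and the beta subunit Atp5b (0.16 ± 0.26) pointed upwards instead, both with overlapping arrays. Other probe sets of Atp5a1 gave 0.17 and -0.022. Atp5b ranged from 3638 to 6263, and its sign turned when stage 1 NKT array 2 was left out (-0.17). Atp5c1, the central shaft, was at -0.19 ± 0.14. In stage 1 NKT against CD4SP it read 0.23 ± 0.15, but a dimmer probe set gave -0.64.

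Assembly factors help to build complexes I and II and are not part of the finished enzymes. Of 12, 11 had a lower mean in Luxoid than in stage 1 NKT, with a median of -0.36. Ndufaf2, a chaperone of complex I, read 1152 and 1344 in stage 1 NKT, 796, 890 and 967 in Luxoid NKT, and 708 and 730 in CD4SP. The 3 groups were separate, and stage 1 NKT exceeded CD4SP 1.73-fold (0.79 ± 0.16, adjusted p = 0.0127). Luxoid minus stage 1 NKT was -0.50 ± 0.15 (adjusted p = 0.195). Ndufaf6 was also called in stage 1 NKT against CD4SP (0.59 ± 0.15, adjusted p = 0.0303), at 181 and 165 against 119 and 110. Ndufaf7, a methyltransferase that acts in complex I assembly, was the 1 gene called higher in Luxoid NKT than in CD4SP. It read 395 and 302 in stage 1 NKT, 433, 311 and 306 in Luxoid NKT, and 213 and 216 in CD4SP (Luxoid minus CD4SP 0.69 ± 0.19, adjusted p = 0.0431, lost in 6 of 7 fits that left out 1 array). Luxoid minus stage 1 NKT was 0.0012 ± 0.19, with overlapping arrays.

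The complex II factors did not follow one course. Sdhaf4 read 489 and 503 in stage 1 NKT, 367, 393 and 223 in Luxoid NKT, and 402 and 467 in CD4SP. All Luxoid arrays were the lowest of the series (-0.64 ± 0.24 against stage 1 NKT, adjusted p = 0.343). Sdhaf3 read 194 and 226, then 122, 160 and 124, then 79.3 and 169 (-0.64 ± 0.29, adjusted p = 0.455). Sdhaf1, needed for the iron-sulphur subunit, had its highest values in CD4SP, at 616 and 749 in stage 1 NKT, 494, 565 and 610 in Luxoid NKT, and 899 and 937 in CD4SP. It was called lower in Luxoid NKT than in CD4SP by 1.66-fold (-0.73 ± 0.15, adjusted p = 0.0132), a call lost without either CD4SP array.

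**Figure D3:**
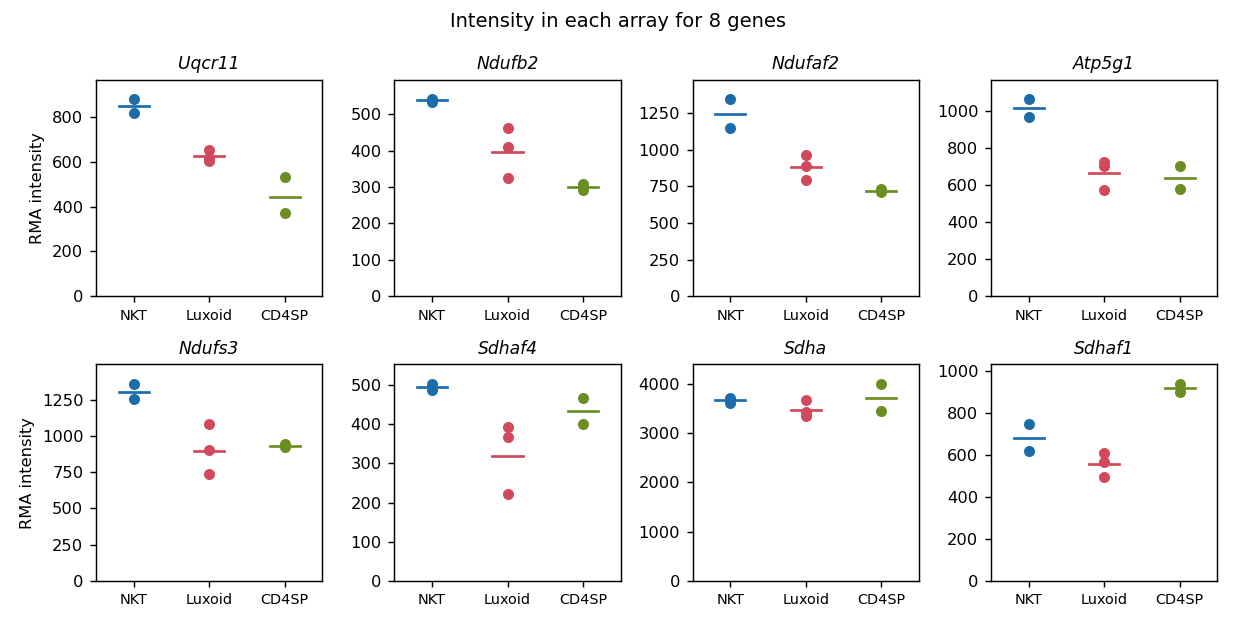
Intensity of 8 genes in each array (points) with the geometric mean of each group (bars), on linear axes that start at 0. Uqcr11, Ndufb2 and Ndufaf2 lay in 3 separate steps from stage 1 NKT to Luxoid NKT to CD4SP. Atp5g1 and Ndufs3 were higher in stage 1 NKT than in both other groups, Sdhaf4 was lowest in Luxoid NKT, Sdha overlapped in all groups and Sdhaf1 was highest in CD4SP.

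The 3 genes, Atp5l, Cox5a and Sdhd, lie within 10 Mb of Zbtb16 in the RefSeq assembly, a region that can differ between mutant and control mice apart from the mutation. Their Luxoid differences were -0.21 ± 0.26, -0.28 ± 0.20 and -0.099 ± 0.16, close to or between the quartiles of the 91 genes, and 0 were called.

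Many genes of the chain are known targets of the factors NRF1 and GABP, so their promoters were read for both sets of letters: the NRF1 motif and the ETS motif CCGGAAGT that GABP recognises, each on both strands. RefSeq promoter windows of GRCm38.p6, 300 bases each around a gene's start, matched 78 of the 94 genes. The NRF1 letters stood in the windows of 19 of these 78 genes (24.4%), against 5.19% of all genes with a window and 12% of the genes tested. The ETS letters stood in 5 of 78 (6.41%), against 4.31% and 9.69%. The 19 genes with the NRF1 letters had a median Luxoid difference of -0.30 and the 56 tested genes without them -0.24, while stage 1 NKT minus CD4SP was 0.23 and 0.37. These are descriptions of letters, not of binding.

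The windows of 4 genes with large differences are printed 5′ to 3′ on the gene's strand, with motif letters in capitals: Uqcr11 and Ndufs3 with the ETS letters, Sdhaf4 with the NRF1 letters, and Atp5g1 with neither. They lie at chr10:80406772-80407071, chr2:90904672-90904971, chr1:24005591-24005890 and chr11:96075582-96075881, all on the minus strand.
Uqcr11: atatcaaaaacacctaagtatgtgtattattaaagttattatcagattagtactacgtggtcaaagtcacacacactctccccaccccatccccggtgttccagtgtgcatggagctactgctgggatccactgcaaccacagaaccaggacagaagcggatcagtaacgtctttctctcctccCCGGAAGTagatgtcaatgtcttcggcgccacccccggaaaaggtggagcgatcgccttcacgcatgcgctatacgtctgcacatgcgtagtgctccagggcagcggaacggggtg
Ndufs3: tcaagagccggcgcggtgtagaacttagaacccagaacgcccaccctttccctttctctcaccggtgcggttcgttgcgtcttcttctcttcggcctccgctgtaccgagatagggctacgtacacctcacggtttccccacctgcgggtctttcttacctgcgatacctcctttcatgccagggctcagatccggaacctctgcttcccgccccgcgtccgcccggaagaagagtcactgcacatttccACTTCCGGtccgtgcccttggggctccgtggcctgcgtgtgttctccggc
Sdhaf4: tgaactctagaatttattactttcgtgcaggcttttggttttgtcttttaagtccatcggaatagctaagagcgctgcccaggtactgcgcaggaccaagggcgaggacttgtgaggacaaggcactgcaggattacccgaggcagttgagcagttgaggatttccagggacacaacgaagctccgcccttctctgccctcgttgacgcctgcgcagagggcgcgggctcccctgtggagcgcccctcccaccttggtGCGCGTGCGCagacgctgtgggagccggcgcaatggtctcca
Atp5g1: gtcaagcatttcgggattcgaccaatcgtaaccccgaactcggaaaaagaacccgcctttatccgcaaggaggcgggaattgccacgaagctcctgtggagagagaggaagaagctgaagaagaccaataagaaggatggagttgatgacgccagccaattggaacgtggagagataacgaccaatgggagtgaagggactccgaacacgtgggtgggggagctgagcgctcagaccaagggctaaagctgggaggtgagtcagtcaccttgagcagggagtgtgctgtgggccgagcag

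The Uqcr11 window holds the ETS letters in the forward sense, and the Ndufs3 and Sdhaf4 windows hold their letters in the reverse sense. In Uqcr11 the steps were from 820 and 881 in stage 1 NKT to 373 and 532 in CD4SP. Atp5g1, with neither motif in its window, had a Luxoid difference of -0.61, beside -0.64 for Sdhaf4.

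Other mitochondrial genes were read from lists by symbol that leave out the 94. Cytochrome c, Cyc1 of complex III and further assembly factors (35 genes tested) had a median of -0.24 in Luxoid against stage 1 NKT, with 33 lower by mean and 0 called, and of 0.31 in stage 1 NKT against CD4SP, with 4 called higher, a share near the 10.8% of all genes, and 0 lower. Cycs, which encodes cytochrome c itself, read 4253 and 3892 in stage 1 NKT, 3786, 3083 and 2992 in Luxoid NKT, and 2786 and 2614 in CD4SP. All 3 groups were separate, and stage 1 NKT minus CD4SP passed (0.59 ± 0.17, adjusted p = 0.0453). Uqcc2, an assembly factor of complex III, was higher by 0.90 ± 0.16 (adjusted p = 0.00758). Sco2 and Tmem70, factors of complex IV and complex V, were higher by 0.64 ± 0.14 and 0.58 ± 0.16.

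The mitochondrial ribosome, which makes the subunits encoded in mitochondrial DNA, was the list with the largest medians in Luxoid against stage 1 NKT. Of 76 genes 68 had a lower mean in Luxoid than in stage 1 NKT (median -0.30, 0 called), and 75 a higher mean in stage 1 NKT than in CD4SP (median 0.40, 12 called higher, where the background was 10.8% of genes). Among those called, Mrps28 had the lowest adjusted p, at 802 and 802 in stage 1 NKT, 502, 576 and 509 in Luxoid NKT, and 364 and 413 in CD4SP (stage 1 NKT minus CD4SP 1.05 ± 0.15, adjusted p = 0.00258). Mrpl36 differed by slightly more, with a larger error (1.07 ± 0.32, adjusted p = 0.0558). The Luxoid difference of Mrps28, -0.60 ± 0.14, came closest to the threshold of any gene in these lists (adjusted p = 0.0875). Protein import genes (22 tested) had medians of -0.19 and 0.33 in those 2 comparisons, with Timm10 (0.98 ± 0.20), Timm50 (0.96 ± 0.20) and Timm8b (0.79 ± 0.19) called higher in stage 1 NKT than in CD4SP. Carriers, uncoupling and peroxide defence (11 tested) had medians of -0.13 and 0.42, with Prdx3, a peroxidase of mitochondria, (0.71 ± 0.17) and Vdac2, a channel of the outer membrane, (0.67 ± 0.17) called. Of 12 coenzyme Q genes Coq7 was called, higher in stage 1 NKT (0.90 ± 0.16) and in Luxoid NKT (0.70 ± 0.14) than in CD4SP. Of all genes tested 10.8% were called higher in stage 1 NKT and 11.3% in Luxoid NKT than in CD4SP. The few calls in the import, carrier and coenzyme Q lists therefore do not set these lists apart.

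Genes of regulators of mitochondrial biogenesis lay near the background. The 20 tested had medians of -0.058 and 0.073 in Luxoid against stage 1 NKT and in stage 1 NKT against CD4SP, with 0 called in either by limma (4 and 3 at an unadjusted p under 0.05). Nrf1 read 1055 and 882 in stage 1 NKT, 1266, 1166 and 1775 in Luxoid NKT, and 1155 and 1069 in CD4SP. It pointed upwards in Luxoid NKT (0.52 ± 0.20) without passing (adjusted p = 0.359). Tfam, which packs and transcribes mitochondrial DNA, read 886 and 686, then 891, 686 and 753, then 587 and 597. Every NKT array was above both CD4SP arrays, without passing, and the NKT groups differed by -0.014 ± 0.17. Ppargc1b, a coactivator of this programme, was lower in Luxoid NKT, measured against CD4SP (-0.68 ± 0.15, adjusted p = 0.0169), at 105, 130 and 102 against 183 and 175.

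**Figure D4:**
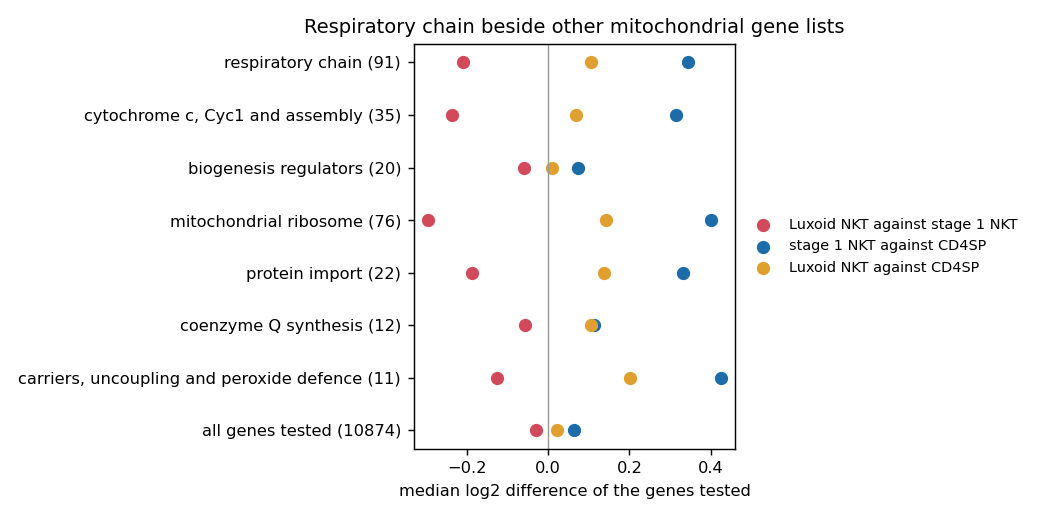
Median log2 difference of the genes tested in the respiratory chain and in 6 other mitochondrial lists, with all genes tested for comparison and the number of genes in brackets. In Luxoid NKT against stage 1 NKT the chain stood at -0.21 and the mitochondrial ribosome at -0.30, while regulators of biogenesis (-0.058) stood close to all genes tested (-0.030).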

How the data were processed

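RNA of the 7 samples was amplified and hybridised to Mouse430_2 arrays, per the labels. The deposited values are intensities that the authors made with RMA in Affymetrix Expression Console, per the submitters' processing notes; versions were not given in the sources used here. Of 45037 probe sets 34945 carried 1 symbol. Log2 was taken of the deposited intensities, no further normalization was applied, and 1 model of group means over the 7 arrays was fitted with limma 3.58.1 in R 4.3.3 (4 residual degrees of freedom, Benjamini-Hochberg over 10874 genes, adjusted p under 0.05). The script was tested on simulated data. Errors are standard errors, and the number of arrays limits the precision; p-values measure the spread between pools that the labels call biological replicates. Genes were named where called, in the other lists at most 4 per comparison. Others were the 5 largest Luxoid differences without overlap, core subunits, the alpha, beta, gamma and c subunits of ATP synthase, and complex II subunits. Isoform families and genes failing the filter were named as well. Uqcr10, Uqcrq, Cox5a, Nrf1 and Tfam were chosen after their values were seen. The members and lists were chosen with earlier results of these data known. Alternatives covered the probe sets, filter, normalization, variance model, covariates and each array left out.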

Additional observations from a re-analysis of the deposited data

How the results depend on the processing

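In Luxoid against stage 1 NKT, 0 genes of the chain were called by limma under each of 11 alternatives and 7 fits without 1 array, and the median stayed between -0.25 and -0.15. In stage 1 NKT against CD4SP the count was 22 with a trended and robust variance and 18 with the Y-linked covariate, and in Luxoid NKT against CD4SP it was 6 with the trended variance. Without 1 array, the counts ran from 0 to 10 and from 0 to 3 in these comparisons, and the medians from 0.27 to 0.38 and from 0.021 to 0.17. The causes of these shifts were not tested. The share of all genes called under each alternative was not compared, so these counts do not set the chain apart.

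Same-numbered arrays deviated together (r = 0.334 to 0.491). In a group of 2 arrays the deviations from the group mean mirror each other, so stage 1 NKT with CD4SP gave 0.431 for both numbers by construction. Only 2 numbers were shared in each comparison and the arrays numbered 1 also shared low Y-linked expression, so the numbers were not taken as pairs. With the replicate number as a block the counts were 25 in stage 1 NKT against CD4SP (24 higher, 1 lower) and 10 in Luxoid NKT against CD4SP (8 higher, 2 lower), and in the latter the medians were 0.12 for complex IV and 0.14 for assembly factors. The share of all genes called with the block was not compared. The block changed no call in Luxoid against stage 1 NKT.

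Medians by complex moved with the choice of probe sets, the filter and single arrays. With the mean of all probe sets they were, in Luxoid against stage 1 NKT, -0.12 for complex IV, -0.15 for complex V and -0.29 for assembly factors. In stage 1 NKT against CD4SP they were 0.38 for complex II, 0.19 for complex IV, 0.24 for complex V and 0.23 for assembly factors, and in Luxoid NKT against CD4SP 0.24 for complex II and 0.15 for complex IV. Without probe sets that can match several transcripts, complex III was at -0.14 in Luxoid against stage 1 NKT, complex II at 0.48 in stage 1 NKT against CD4SP, and complexes II and IV at 0.34 and 0.11 in Luxoid NKT against CD4SP. Complex IV, which holds the dim isoforms, moved with the filter: with the stricter floor it was at -0.16, 0.35 and 0.16 in the 3 comparisons, and with no filter at 0.12 and 0.011 in those with CD4SP. In Luxoid NKT against CD4SP it was 0.11 with median centring and 0.010 with another quantile normalization.

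Without 1 array, complex III ran from -0.41 to -0.15, complex IV from -0.16 to -0.059 and assembly factors from -0.42 to -0.34 in Luxoid against stage 1 NKT. In stage 1 NKT against CD4SP complex I ran from 0.27 to 0.40, complex II from 0.10 to 0.30, complex V from 0.23 to 0.49 and assembly factors from 0.30 to 0.44. In Luxoid NKT against CD4SP complex II ran from -0.0007 to 0.15, complex IV from -0.014 to 0.12, complex V from 0.021 to 0.19 and assembly factors from -0.077 to 0.14.

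Signs turned only for uncalled differences among the named genes. In Luxoid against stage 1 NKT, Ndufs1 was 0.0069 with the Y-linked covariate and Atp5g2 0.031 with the mean of probe sets. In stage 1 NKT against CD4SP, Sdha was 0.056 with the mean of probe sets, 0.096 without probe sets that can match several transcripts and 0.0098 with median centring, and Atp5c1 was -0.21 and -0.64 under the first 2 of these. Without 1 array, the Luxoid differences ran from -0.19 to 0.20 for Ndufaf7, -0.31 to 0.22 for Ndufs1, -0.15 to 0.0 for Ndufv1, -0.29 to 0.0053 for Sdhc, -0.096 to 0.18 for Uqcrc1 and -0.17 to 0.50 for Atp5b. Those of stage 1 NKT against CD4SP ran from -0.13 to 0.089 for Sdha, -0.026 to 0.28 for Uqcrc1, -0.032 to 0.061 for Atp5a1 and -0.095 to 0.58 for Atp5b.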
